A study of Rattus norvegicus with 16 samples.

Results

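The changes that separate tumor-bearing rats at day 14 from day 1 were read from 7 of the 16 dorsal root ganglion (DRG) samples of the series. They are samples 1 to 4 of day 14 after tumor cell implantation (TCI) and samples 1, 3 and 4 of day 1 after TCI, chosen by the time point in their labels. Sample 2 of day 1 was left out by the study, so its values are given apart and enter no test unless said. The 3 day 7 samples kept by the study and the 4 sham samples appear only to place day 1 and day 14.

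All rats were adult female Sprague-Dawley rats with no genetic change named. In TCI rats live Walker-256 carcinoma cells, a rat mammary tumor line grown as ascites, were put into the marrow space of the left tibia. Sham rats were sampled at day 14. By the labels they received PBS in the tibia, and by the methods they received boiled tumor cells, so what the sham injection held cannot be told here. There was no sham group at day 1, so a difference of day 1 from sham joins tumor cells with the time since surgery, and these cannot be told apart. The left L3 to L5 ganglia of 1 rat were pooled as 1 sample, so each sample is another animal. The cells were put in the bone and not in the ganglia, and the labels do not give the size of the tumor in any rat.

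A DRG holds the cell bodies of the sensory neurons that serve the limb, each wrapped by satellite glia, together with myelinating Schwann cells, vessels, fibroblasts and resident macrophages. Lymphocytes are sparse in a healthy ganglion. Cells show peptides to CD8 T cells on MHC class I molecules and to CD4 T cells on MHC class II molecules, and interferon-gamma, made by activated lymphocytes, raises both along with chemokines such as Cxcl9 that draw more T cells. In whole ganglia more cells of a type and more RNA per cell cannot be told apart, and this holds for every value below.

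Neuronal genes marked all 7 samples as DRG. The summed level of 22 sensory neuron markers ran from 17664 to 19037 FPKM in the 3 day 1 samples and from 15563 to 18474 FPKM on day 14, where FPKM are fragments scaled to gene length and to the fragments of the library. FPKM hold no read totals, and the text of the paper gives clean reads as a mean over samples. So the depth of each sample is unknown here. Still, 13192 to 13223 genes reached 1 FPKM in the day 1 samples used and 13301 to 13700 on day 14. On log2(FPKM + 1) the day 1 samples had Pearson r of 0.991 to 0.992 with each other across genes, and the day 14 samples 0.970 to 0.991. Sample 2 of day 14 stood farthest from day 1, with r of 0.948 to 0.952.

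By limma on log2(FPKM + 1), 26 of 14023 genes were up-regulated on day 14 against day 1 at the cut-offs of the study, which ask for a log2 fold change of 1 or more and an adjusted p of 0.001 or less. These are 0.185% of the genes tested. Only Lect1 was down-regulated at these cut-offs, or 0.00713%. At an adjusted p of 0.05 with no limit on the fold change, which is the test meant below, 828 genes were higher (5.9%) and 148 lower (1.06%), so 84.8% of those called were higher. That share fell to 57.0% after centring each sample on its median and to 56.1% after quantile normalization. Of the 828, 306 had a log2 fold change of at least 1, as did 2 of the 148. The median log2 fold change of all genes was 0.03. A gene could enter the test through day 7 and day 14 alone, and such a gene had to be higher there. So the 13335 genes with at least 1 FPKM in 3 of the 7 day 1 and sham samples, called already expressed below, are also counted apart, and 621 of them were higher on day 14 (4.66%). Without day 1 sample 1, 3 or 4 the count at the cut-offs of the study was 7, 0 or 0, and without day 14 sample 1, 2 or 3 it was 11, 115 or 48. The 828 became 258, 271 or 311 without day 1 sample 1, 3 or 4. The 148 became 38, 39 or 39 without them, 80 without day 14 sample 2 and 324 without day 14 sample 4. The day 1 and day 14 samples did not overlap at 1933 genes that were higher (13.8%) and at 637 that were lower (4.54%).

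Ccl5, a chemokine that draws T cells and monocytes, had the largest fold change at the cut-offs of the study. It measured 1.08, 1 and 0.68 FPKM in day 1 samples 1, 3 and 4 and 34.9, 115, 32.04 and 33.1 FPKM in day 14 samples 1 to 4. The lowest day 14 sample lay far above every day 1 sample, sample 2 of day 1 included at 1.42 FPKM. Its mean went from 0.920 ± 0.212 FPKM (SD, n = 3) to 53.7 ± 40.8 FPKM (SD, n = 4) (log2 fold change 4.6, SE 0.43, adjusted p = 0.00013). Because 1 is added before the logarithm, this fold change understates the ratio of the means, 58.4. The other 9 genes taken by size among those at these cut-offs were RT1-Bb, Cd74, RT1-Da, C3, RT1-Ba, RT1-Db1, Lyz2, RT1-A2 and RT1-DMb, of which 7 serve antigen presentation. Genes with larger fold changes but a higher adjusted p, such as Ubd and Cxcl9 below, are not among them. Fold changes of these 10 ran from 2.84 to 4.6, and all kept an adjusted p under 0.05 with any 1 of the 14 samples left out. C3 passed the filter only through day 7 and day 14, where it was high, so its adjusted p adds no support.

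**Figure D1:**
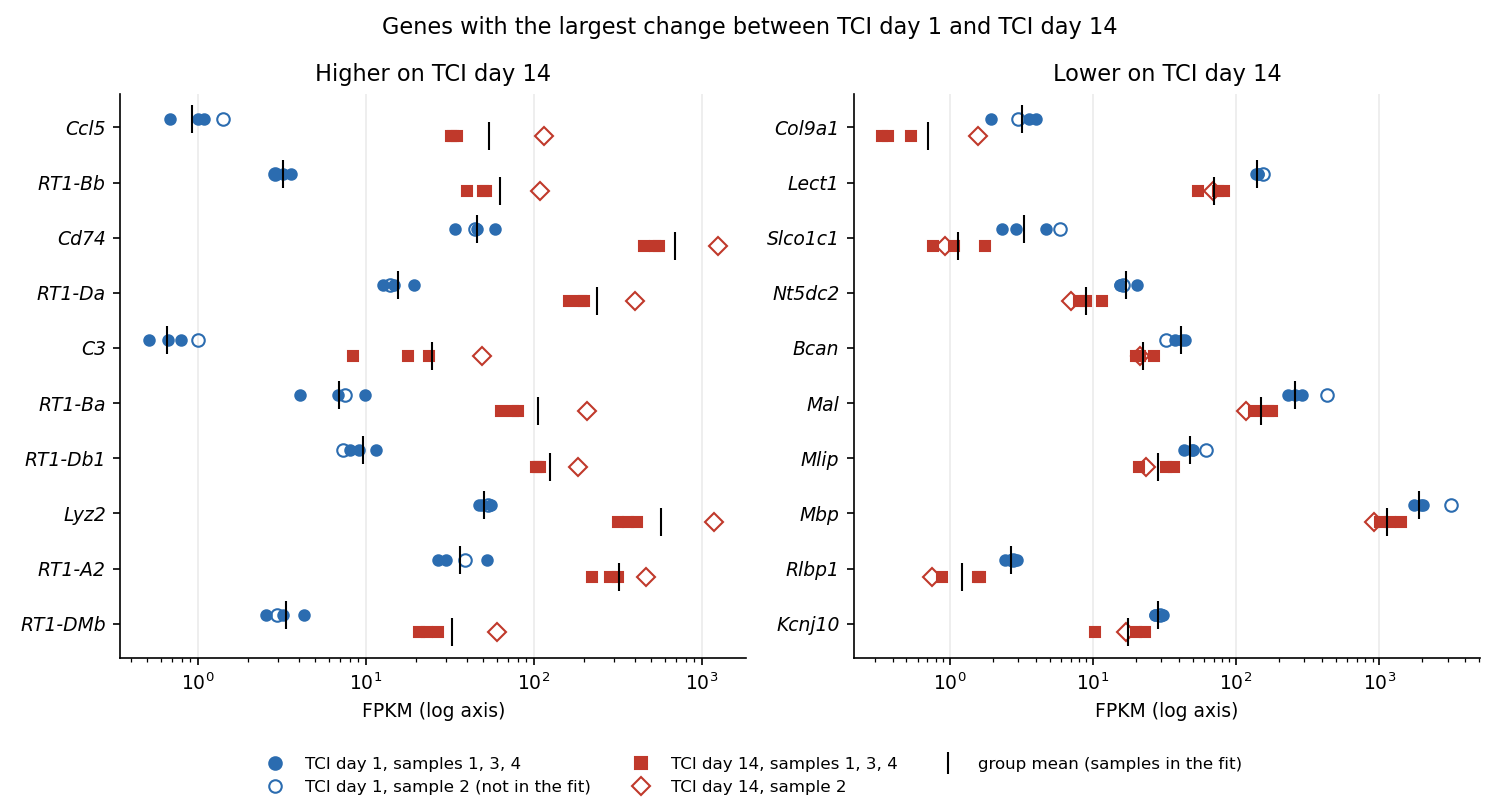
FPKM (log axis) in each sample for the 10 genes with the largest rise (left) and the 10 with the largest fall (right) from TCI day 1 to TCI day 14, with open circles for day 1 sample 2, open diamonds for day 14 sample 2 and bars for the mean of the samples in the fit. Day 14 sample 2 is the highest sample for each of the 10 genes at left, and the day 1 and day 14 samples do not overlap for any gene shown.

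Of 13 MHC class II genes tested, 12 rose, 7 of them at the cut-offs of the study. Those that rose include 9 of the 9 already expressed, whose median log2 fold change was 3.55 against 0.03 over all genes tested. Cd74, the invariant chain that guides class II molecules to the endosome, measured 34.1, 45.8 and 58.4 FPKM on day 1 and 556, 1241, 454 and 523 FPKM on day 14 (log2 fold change 3.79, SE 0.37, adjusted p = 0.0002). RT1-Da, a class II alpha chain, measured 12.7, 14.7 and 19.2 FPKM on day 1 and 199, 399, 163 and 190.2 FPKM on day 14 (log2 fold change 3.78, SE 0.35, adjusted p = 0.00013). For both genes day 14 samples 1, 3 and 4 lay close together and sample 2 was about 2 times higher or more. RT1-Db1, a beta chain, went from 11.6, 8.04 and 9.09 FPKM to 104, 182, 106 and 108 FPKM (log2 fold change 3.55, SE 0.31, adjusted p = 0.00013). Ciita, the coactivator on which class II transcription depends, went from 0.23, 0.23 and 0.26 FPKM to 3.57, 5.74, 1.69 and 2.92 FPKM (log2 fold change 1.78, SE 0.28, adjusted p = 0.00396). Its day 1 values were all under the 1 FPKM of the filter, so no day 1 sample counted toward passing it and its adjusted p adds no support. RT1-DMa was the gene that did not pass, being listed at 0 in 2 of the day 14 samples and in the 3 day 1 samples used. RT1 names the whole rat MHC, and where members of the same class are closely related in sequence the split of reads between them is uncertain.

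The windows before the starts of 4 of these class II genes are shown because the genes moved together and share a spaced pair of motifs. They hold the 250 bases before the RefSeq start on rat build GRCr8, read 5′ to 3′ on the strand of the gene. Capitals mark an X box core (C, any 2 bases, G, any 2 bases, AC, any 1 base and G) and the Y box, CTGATTGG, which class II promoters are known for and at which the complex that recruits Ciita binds.
RT1-Da (chr20:4515165-4515414, plus strand): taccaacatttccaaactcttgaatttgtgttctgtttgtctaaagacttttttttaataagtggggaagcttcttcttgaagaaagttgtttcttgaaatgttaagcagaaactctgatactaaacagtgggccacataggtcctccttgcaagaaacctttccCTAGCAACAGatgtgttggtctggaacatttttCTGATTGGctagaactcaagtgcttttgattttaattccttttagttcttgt
RT1-Ba (chr20:4576807-4577056, plus strand): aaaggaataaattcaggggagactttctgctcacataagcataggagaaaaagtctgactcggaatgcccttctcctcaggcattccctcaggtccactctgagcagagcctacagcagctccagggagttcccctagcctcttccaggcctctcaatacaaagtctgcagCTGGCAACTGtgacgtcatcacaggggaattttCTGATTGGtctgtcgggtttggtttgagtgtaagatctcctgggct
RT1-Bb (chr20:4604119-4604368, minus strand): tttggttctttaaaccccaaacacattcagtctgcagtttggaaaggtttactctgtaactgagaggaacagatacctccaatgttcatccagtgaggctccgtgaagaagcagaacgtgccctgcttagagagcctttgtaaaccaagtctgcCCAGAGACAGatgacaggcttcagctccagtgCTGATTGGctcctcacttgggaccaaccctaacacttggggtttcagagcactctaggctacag
RT1-Db1 (chr20:4560163-4560412, minus strand): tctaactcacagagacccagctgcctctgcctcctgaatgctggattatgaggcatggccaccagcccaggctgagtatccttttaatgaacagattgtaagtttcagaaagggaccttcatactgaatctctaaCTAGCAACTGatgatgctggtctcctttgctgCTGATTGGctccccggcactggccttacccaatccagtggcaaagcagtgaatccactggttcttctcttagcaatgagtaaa
The 2 motifs were 23 bases apart in RT1-Da and RT1-Ba and 22 in RT1-Bb and RT1-Db1. Searched on both strands with 22 or 23 bases between them, the pair was present in 9 of 33469 RefSeq promoters (0.0269%). These letters and this spacing were set after reading the sequences. Among 10951 genes tested here that have a promoter in the table, 5 held the pair, namely these 4 and Rpa2, a subunit of replication protein A, whose level did not pass the test (log2 fold change 0.09, SE 0.07, adjusted p = 0.467). The Y box alone was in 3.19% of promoters, in 4.90% of those of all genes tested, and in 22 (3.50%) of the 628 with a promoter in the table among the genes higher on day 14.

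MHC class I and antigen processing genes rose in 16 of 19 tested, 5 at the cut-offs of the study, and in 15 of the 18 already expressed, which had a median of 1.54. RT1-A2, a class I heavy chain, measured 52.4, 29.8 and 26.8 FPKM on day 1 and 318, 465, 285 and 222 FPKM on day 14 (log2 fold change 3.13, SE 0.29, adjusted p = 0.00013). Its partner chain B2m measured 253, 164 and 162 FPKM on day 1 and 741, 1319.8, 769 and 615 FPKM on day 14 (log2 fold change 2.12, SE 0.22, adjusted p = 0.00031). Here the lowest day 14 sample was more than double the highest day 1 sample. RT1-A1, another heavy chain, had the smallest adjusted p of all genes, 7.3e-05, and went from 20.8, 16.3 and 16.1 FPKM to 106, 146, 109.5 and 93.8 FPKM. Its day 14 samples were closer to each other than those of B2m.

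The RT1-A2 window is shown because it holds a Y box on the other strand, read as CCAATCAG, and an NF-kB element (GGGG, ATT and CCCC in a row), both in capitals. The Gbp2 window is shown beside it for an interferon-stimulated response element (GAAA, any 2 bases and GAAA) on the other strand.
RT1-A2 (chr20:4872621-4872870, plus strand): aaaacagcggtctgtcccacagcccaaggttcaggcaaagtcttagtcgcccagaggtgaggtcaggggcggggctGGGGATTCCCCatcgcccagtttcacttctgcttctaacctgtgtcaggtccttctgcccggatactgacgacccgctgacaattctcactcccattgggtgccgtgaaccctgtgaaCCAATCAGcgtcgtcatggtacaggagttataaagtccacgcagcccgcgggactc
Gbp2 (chr2:234005477-234005726, plus strand): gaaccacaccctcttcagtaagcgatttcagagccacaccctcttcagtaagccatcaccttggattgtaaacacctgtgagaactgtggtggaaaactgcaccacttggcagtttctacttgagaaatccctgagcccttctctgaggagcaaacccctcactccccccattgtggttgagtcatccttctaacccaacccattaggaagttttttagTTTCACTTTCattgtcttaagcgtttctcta
The NF-kB element was in 20 of 33469 promoters (0.0598%) and in 5 of the 628 genes higher on day 14 that have a promoter in the table. The response element was in 3.41% of promoters, and in 59 (9.4%) of those 628 against 2.87% of all genes tested. The gamma-activated site, TTCNNNGAA, was in 52 (8.28%) of the 628 and in 6.37% of all genes tested. Such matches describe letters and show no binding.

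Interferon-gamma response genes were higher on day 14 in 13 of 18 tested and in 10 of the 15 already expressed, which had a median of 1.59. Irf1, a transcription factor that interferon-gamma induces, measured 4.32, 3.86 and 4.78 FPKM on day 1 and 15.5, 65.7, 10.6 and 12.1 FPKM on day 14 (log2 fold change 1.93, SE 0.44, adjusted p = 0.0202). Gbp2, a guanylate-binding protein, measured 8.68, 7.98 and 8.27 FPKM on day 1 and 33.7, 201, 34.5 and 30.3 FPKM on day 14 (log2 fold change 2.5, SE 0.49, adjusted p = 0.0105). Ubd, a ubiquitin-like protein, measured 1.36, 0.84 and 0.86 FPKM and then 35.7, 310.1, 36.1 and 9.53 FPKM (log2 fold change 4.52, SE 0.76, adjusted p = 0.00506). The 4 day 14 samples were above every day 1 sample for these genes, but sample 2 lay more than 2 times above the next. The list count was 7, 5 or 5 without day 1 sample 1, 3 or 4. Interferon-gamma itself, Ifng, was under the filter on low values, at 0.08, 0.98, 0.08 and 0.17 FPKM in the 4 day 14 samples and 0, 0 and 0 FPKM in the day 1 samples.

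Genes that type I interferons are known to induce were higher in 6 of 25 tested, all among the 22 already expressed, which had a median of 0.87. Bst2, an antiviral membrane protein, went from 19.2, 12.1 and 17.5 FPKM to 59.3, 196, 62.2 and 49.4 FPKM (log2 fold change 2.21, SE 0.36, adjusted p = 0.00436). Isg15, a ubiquitin-like modifier, went from 7.27, 7.02 and 9.09 FPKM to 18.4, 119.9, 28.4 and 17.7 FPKM (log2 fold change 1.95, SE 0.51, adjusted p = 0.0367), and its call was lost without any 1 day 1 or sham sample (adjusted p 0.0516 to 0.119). For this list day 14 sample 2 had a mean log2(FPKM + 1) of 4.96, against 3.34, 3.56 and 3.22 in samples 1, 3 and 4 and 2.80 ± 0.05 (SD, n = 3) on day 1. Without day 14 sample 2 or 4, 10 or 11 of the genes passed, and without day 1 sample 1, 3 or 4, 2, 3 or 2 did.

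Chemokines and their receptors were higher for 14 of 30 genes tested and lower for none, and for 8 of the 19 already expressed, which had a median of 0.78. The other 6 genes called passed the filter only through day 7 and day 14, so their calls add no support. Among ligands, Cxcl9, which acts on Cxcr3, measured 1.74, 2.51 and 2.47 FPKM on day 1 and 57.5, 199, 23.6 and 24.8 FPKM on day 14 (log2 fold change 4.02, SE 0.56, adjusted p = 0.00202). Cxcl13, a chemokine that draws B cells, measured 1.5, 0.94 and 0.43 FPKM and then 12.8, 159.9, 11.1 and 10.7 FPKM (log2 fold change 3.63, SE 0.75, adjusted p = 0.0139). Its sample 2 was more than 10 times each of the other day 14 samples, and the call was lost without day 1 sample 3 or 4 (adjusted p 0.0554 to 0.0636). Among receptors, Cxcr3 (log2 fold change 1.63), Cxcr6 (1.24) and Cx3cr1 (1.23) rose. Ccl2, which draws monocytes, had a log2 fold change of 0.78 and did not pass (adjusted p = 0.188). Cxcr4 lay lower on day 14 with no overlap but did not pass either (log2 fold change -0.62, SE 0.21, adjusted p = 0.0937). The count was 8, 6 or 7 without day 1 sample 1, 3 or 4.

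Macrophage markers were up for 22 of 25 genes, 3 at the cut-offs of the study, and for 16 of the 18 already expressed, which had a median of 1.64. Lyz2, lysozyme, measured 48.9, 47.04 and 55.8 FPKM on day 1 and 408, 1185, 361 and 319 FPKM on day 14 (log2 fold change 3.24, SE 0.38, adjusted p = 0.00056). C1qa, made in the nervous system chiefly by macrophages and microglia, measured 8.96, 9.67 and 12.9 FPKM on day 1 and 71.98, 175, 41.9 and 49.1 FPKM on day 14 (log2 fold change 2.67, SE 0.39, adjusted p = 0.00247). Complement genes, 16 of 21 of which rose, were up for 13 of the 16 already expressed, which had a median of 1.57. C3, the protein on which the complement pathways meet, passed the filter only through day 7 and day 14 and was not among those already expressed. It went from 0.79, 0.51 and 0.66 FPKM to 23.6, 49.3, 8.35 and 17.9 FPKM (log2 fold change 3.71, SE 0.41, adjusted p = 0.00037). Day 14 sample 3 had the lowest C3 of its group and still exceeded each day 1 sample by more than 10 times. Serping1, the inhibitor of C1, also rose, from 33.1, 36.9 and 43.5 FPKM to 148, 245, 79.9 and 96.5 FPKM (log2 fold change 1.75, SE 0.29, adjusted p = 0.00436). Ctss, the cathepsin that trims the invariant chain, rose with them from 7.23, 7.21 and 9.09 FPKM to 38.2, 74.7, 27.4 and 33.1 FPKM (log2 fold change 2.23, SE 0.31, adjusted p = 0.00174), whereas Ctsd, the lysosomal cathepsin D, had a log2 fold change of 0.01 (adjusted p = 0.954). Of 13 cathepsins tested, 4 passed, among them 2 of the 11 already expressed, or 9 without day 14 sample 3.

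Most T cell markers were near 0 on day 1. Of 18 listed, 15 could be tested, and 14 of these passed the filter only through day 7 and day 14, where they were high, so no count of them is given. Cd3e, a chain of the T cell receptor complex, was listed at 0.04, 0.02 and 0 FPKM in the day 1 samples and at 3.94, 12.7, 2.93 and 2.89 FPKM on day 14 (adjusted p = 0.00279). Cd8a, a coreceptor of cytotoxic T cells, was listed at 0.18, 0 and 0.15 FPKM and then at 4.17, 11.2, 4.38 and 3.02 FPKM (adjusted p = 0.00174). Cd4, a coreceptor of helper T cells that rat macrophages also carry, was measurable on both days, at 5.64, 4.83 and 7.19 FPKM and 24.1, 39.04, 14.6 and 23.7 FPKM (log2 fold change 1.87, SE 0.26, adjusted p = 0.00174). Of 14 genes of cytotoxic lymphocytes 11 could be tested, 10 of them only through day 7 and day 14, and again no count is given. Gzmm, a granzyme, was the 1 already expressed (log2 fold change 1.24, SE 0.22, adjusted p = 0.00696). Nkg7, a granule protein, was listed at 0, 0.15 and 0.05 FPKM on day 1 and at 3.95, 15.9, 3.21 and 3.03 FPKM on day 14 (adjusted p = 0.00439). Ctsw, a cathepsin of cytotoxic cells, was listed at 0.13, 0.12 and 0.06 FPKM and then at 3.58, 7.02, 5.44 and 4.67 FPKM (log2 fold change 2.46, SE 0.25, adjusted p = 0.0003), with day 14 samples within a factor of 2 of each other. Gzmb, granzyme B, did not pass (log2 fold change 0.59, SE 0.29, adjusted p = 0.256). The call of Cd4, the 1 T cell marker already expressed, held with any 1 sample left out. Cd3e, Cd8a, Nkg7 and Ctsw passed the filter only through day 7 and day 14, so their adjusted p add no support.

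B and plasma cell, neutrophil and mast cell markers gave no call. Only 1 of 10 B cell markers, 3 of 10 neutrophil markers and 1 of 9 mast cell markers passed the filter on low values. Cd22 had a log2 fold change of 0.26 (adjusted p = 0.28). Lcn2, a neutrophil granule protein also made elsewhere, measured 3.91, 3.64 and 3.18 FPKM on day 1 and 2.61, 4.13, 2.59 and 4.01 FPKM on day 14 (log2 fold change -0.1, SE 0.22, adjusted p = 0.862).

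In the other immune lists every call was higher on day 14. Of 32 interleukins, colony-stimulating factors and their receptors 11 rose, and of those already expressed 6 of 22 (median 0.21), among them Il18bp, the soluble binder of interleukin 18, at 3.33, 3.94 and 4.33 FPKM and then 13.3, 45.99, 11.6 and 9.99 FPKM (log2 fold change 1.85, SE 0.36, adjusted p = 0.0111). That call was lost without day 1 sample 1 (adjusted p = 0.0554), and the count was 2, 2 or 3 without day 1 sample 1, 3 or 4 and 17 without day 14 sample 3. Of 14 leukocyte adhesion genes 5 rose, and of those already expressed 2 of 10 (median 0.22). Itgal, the beta 2 integrin partner, which passed the filter only through the later days, was at 0.64, 0.28 and 0.46 FPKM and then 4.4, 20.4, 3.35 and 4.29 FPKM (log2 fold change 2.31, SE 0.44, adjusted p = 0.00947). Endothelial Vcam1, with a log2 fold change of 0.9, did not pass (adjusted p = 0.0772), and the count was 2, 2 or 3 without day 1 sample 1, 3 or 4. Of 15 checkpoint and costimulation genes in the files 6 could be tested, 5 of them only through day 7 and day 14. Cd274, the ligand PD-L1, was the 1 already expressed and did not pass (log2 fold change 0.51, SE 0.18, adjusted p = 0.111). Lag3 (1.75), Cd86 (1.2) and Cd40 (1.01), among the other 5, had adjusted p under 0.05 that were lost without day 1 sample 1, 3 or 4. Of 11 iron handling genes Cp, ceruloplasmin, and Slc11a1, a metal transporter of macrophage phagosomes, rose, with log2 fold changes of 1.43 and 1.64. Fth1, the ferritin heavy chain, measured 4128, 3969 and 4169 FPKM and then 4064, 4114, 4517 and 4226 FPKM (adjusted p = 0.802), and without day 1 sample 1 the call of Slc11a1 was lost (adjusted p = 0.058).

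**Figure D2:**
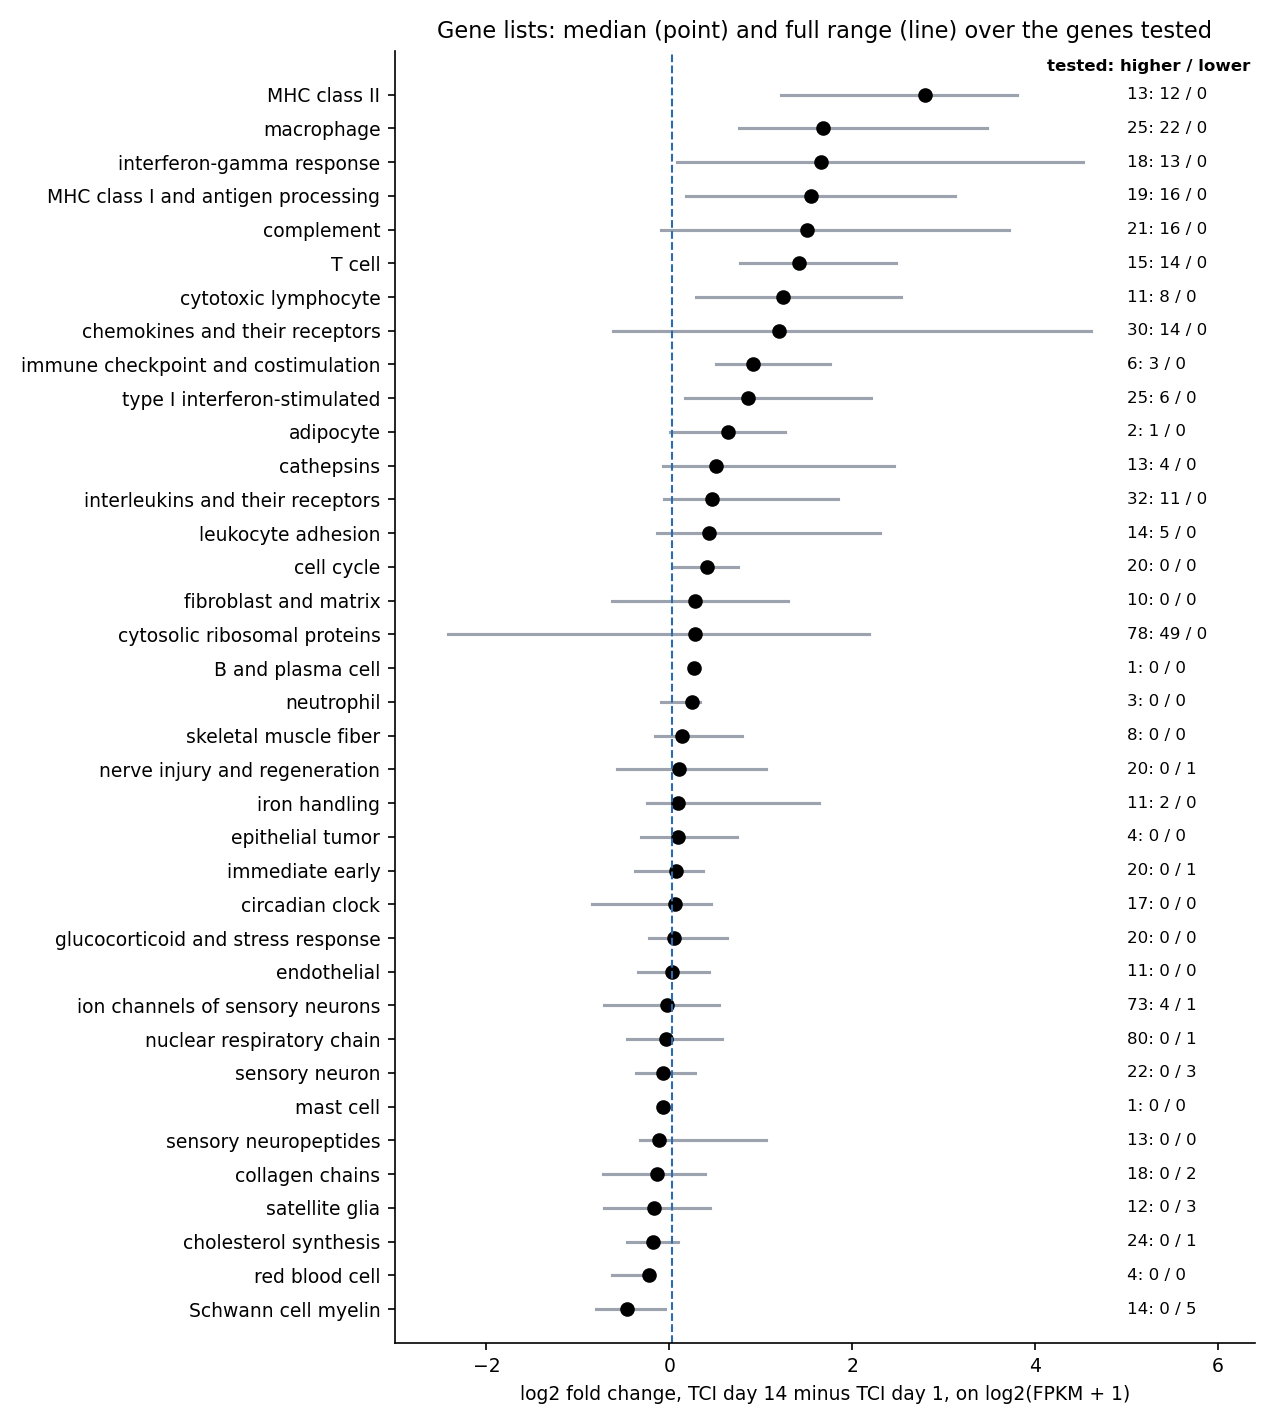
Log2 fold changes from TCI day 1 to TCI day 14 on log2(FPKM + 1) for 37 gene lists, with a point for the median and a line for the full range of the genes tested. The figures at right give the genes tested and how many were higher and lower at an adjusted p of 0.05, and the dashed line marks the median of all genes at 0.03. Most T cell, cytotoxic lymphocyte and checkpoint genes tested passed the filter only through day 7 and day 14, so their medians and counts were bound to be high. MHC class II lies highest at 2.8 and Schwann cell myelin lowest at -0.46.

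The rise differed in size among the 4 day 14 rats. The genes read here were chosen by the test on these same samples. Their place above day 1 in each rat thus follows largely from the choice and is given as values only. Of the 306 genes with a log2 fold change of at least 1 at an adjusted p of 0.05, 289 were highest in sample 2 and 176 lowest in sample 3. The median difference of these genes from the day 1 mean was 1.35, 2.41, 1.05 and 1.19 in samples 1 to 4, on log2(FPKM + 1). In 112 of the 306 the lowest day 14 sample still exceeded the highest day 1 sample by at least 1 on this scale, as it did in 23 of the 26 at the cut-offs of the study. Sample 2 of day 1, which had no part in choosing these genes, lay below every day 14 sample for 305 of the 306, with a median difference of 0.10 from the other day 1 samples. Without day 14 sample 2 the 306 became 211, and without day 1 sample 1, 3 or 4 they became 166, 166 or 192.

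To ask which changes were lasting, the same genes were read at day 7 and in sham. Day 7 against day 1 and day 14 against sham share samples with the comparison that chose the genes, so they are given as values only. The 306 genes had median log2 fold changes of 1.49 for day 14 against day 1, 1.83 for day 7 against day 1, 1.55 for day 14 against sham and 0.02 for day 1 against sham. The day 14 mean was above the day 7 mean in 65 of the 306 but in 16 of the 26 at the cut-offs of the study. Cd74 averaged 450.1 FPKM on day 7 and 694 FPKM on day 14, whereas Lyz2 averaged 663 FPKM and 568 FPKM. Ccl5 measured 63.4, 107 and 35.8 FPKM in the 3 day 7 samples, a range that overlaps that of day 14. Over all members tested, the list median over day 1 was 2.23 on day 7 and 1.68 on day 14 for macrophage genes and 2.75 and 2.8 for MHC class II genes.

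**Figure D3:**
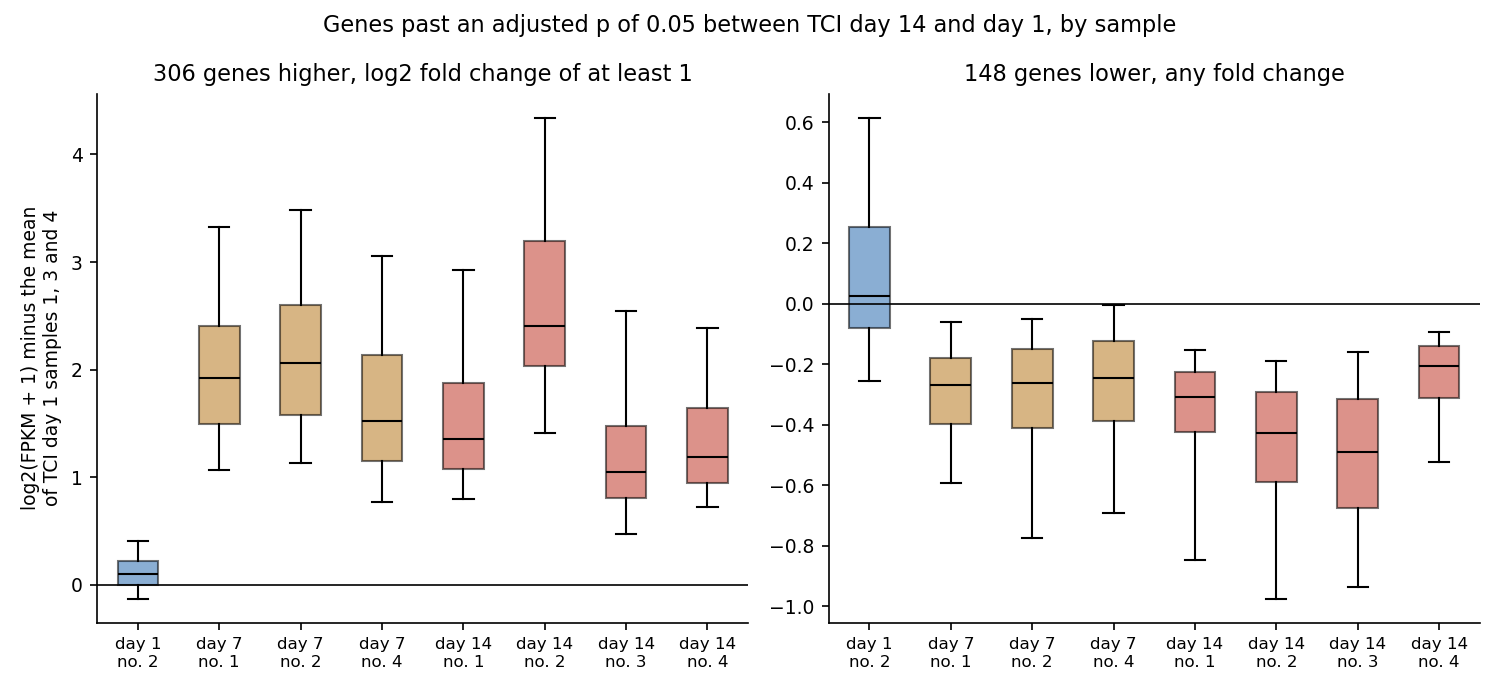
Difference of each sample from the mean of TCI day 1 samples 1, 3 and 4 on log2(FPKM + 1), over the 306 genes higher with a log2 fold change of at least 1 (left) and the 148 genes lower (right) on day 14 at an adjusted p of 0.05. Boxes show quartiles and the median and whiskers the 5th to 95th percentiles. At left the day 14 medians run from 1.05 in sample 3 to 2.41 in sample 2, and day 1 sample 2 lies near 0 in both panels.

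Fewer genes fell, and by less. The median log2 fold change of the 148 was -0.38, and 71 of them were lowest in day 14 sample 3 and 102 least changed in sample 4. Lect1, the gene of chondromodulin, a glycoprotein known from cartilage, measured 137, 143 and 142 FPKM on day 1 and 74.8, 69.6, 54.3 and 81.95 FPKM on day 14 (log2 fold change -1.01, SE 0.11, adjusted p = 0.00037). Its 3 day 1 samples were close to each other and none approached the day 14 range, nor did day 1 sample 2 at 155 FPKM. On day 7 it averaged 73.6 FPKM and in sham 123 FPKM. Bcan, brevican, a proteoglycan of the matrix around neurons, measured 37.4, 43.97 and 41.7 FPKM and then 20.1, 21.4, 21.3 and 26.6 FPKM (log2 fold change -0.85, SE 0.09, adjusted p = 0.00035). Nt5dc2 went from 15.5, 20.4 and 15.6 FPKM to 9, 7.1, 8.06 and 11.5 FPKM (log2 fold change -0.88, SE 0.13, adjusted p = 0.0024). These 3 kept their calls with any 1 sample left out, unlike Col9a1, a chain of type IX collagen with a larger log2 fold change of -1.32 (adjusted p = 0.0485), which lost it in 11 of 14 such fits (adjusted p 0.0507 to 0.168).

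Myelin genes of Schwann cells were the list with the lowest median, -0.46. Of 14 tested, 5 fell (35.7%, against 1.06% of all genes), none rose and 10 did not overlap between the days. Mbp, myelin basic protein, measured 2025, 1756 and 1949 FPKM on day 1 and 1196, 914, 1019.8 and 1429.6 FPKM on day 14 (log2 fold change -0.76, SE 0.14, adjusted p = 0.00808). Mal, a membrane protein of compact myelin, measured 258, 229 and 287 FPKM and then 169, 117, 134 and 179 FPKM (log2 fold change -0.8, SE 0.17, adjusted p = 0.0139). Day 14 sample 2 was lowest and sample 4 highest of its group for both genes, with no overlap with day 1. Pmp22, another membrane protein of compact myelin (log2 fold change -0.61, SE 0.16, adjusted p = 0.0418), and Ncmap (log2 fold change -0.46, SE 0.12, adjusted p = 0.0416) also fell. Sample 2 of day 1 lay above all others, with 3188 FPKM of Mbp and a list mean of 7.91 on log2(FPKM + 1), against 7.31 ± 0.09 (SD, n = 3) in the other day 1 samples. The list mean of day 14 was 6.84 ± 0.32 (SD, n = 4), and that of the sham rats 6.95 ± 0.18 (SD, n = 4). So the day 14 list mean lay near sham while day 1 lay above it, with list medians of 0.35 for day 1 against sham and -0.15 for day 14 against sham. With day 1 sample 2 in the fit 10 myelin genes fell, without day 14 sample 4 it was 9, without day 14 sample 2 it was 2, without day 7 sample 1 or sham sample 1, 2 or 3 it was 3, and without day 1 sample 1, 3 or 4 it was 1, 2 or 1. The call of Mbp held with any 1 sample left out, and that of Mal was lost without day 1 sample 1 or 4 (adjusted p 0.058 to 0.0702).

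Satellite glia markers fell in 3 of 12 genes (25%), with a median of -0.17. Kcnj10, the potassium channel by which satellite glia clear potassium, measured 31, 27.4 and 27.1 FPKM and then 19.9, 17.1, 10.3 and 23.3 FPKM (log2 fold change -0.71, SE 0.20, adjusted p = 0.048), with sample 3 the lowest. S100b, a calcium-binding protein of glia, measured 929.8, 947 and 796 FPKM and then 682, 576, 711 and 674 FPKM (log2 fold change -0.43, SE 0.10, adjusted p = 0.0281). All 3 calls were lost without day 1 sample 1 or 3 or without day 14 sample 2, and the adjusted p of Kcnj10 passed 0.05 in 10 of 14 such fits (0.055 to 0.16). Gfap, which reactive glia raise, had a log2 fold change of 0.44 and did not pass (adjusted p = 0.343), and Glul, glutamine synthetase, had 0.21 (adjusted p = 0.313).

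Of 22 sensory neuron markers tested, 3 fell by small amounts and none rose, a share of 13.6% lower against 1.06% of all genes. They were Nefl (-0.24), Nefh (-0.22) and Ntrk2 (-0.36), and the list median was -0.07. Nefl, the light neurofilament chain, measured 4004, 4397 and 4531 FPKM and then 3383, 3628, 3826 and 3720.1 FPKM (adjusted p = 0.0437). On log2(FPKM + 1) the list mean of the day 1 samples was 7.37 ± 0.03 (SD, n = 3) and that of the day 14 samples 7.31 ± 0.06 (SD, n = 4). None of the 3 calls held without day 1 sample 1, 3 or 4. Of 13 sensory neuropeptides none passed. Calca, which encodes CGRP, measured 770.1, 855 and 748 FPKM and then 622, 575, 834 and 533 FPKM (log2 fold change -0.32, SE 0.13, adjusted p = 0.159), and of the alternatives it passed without day 14 sample 3 (adjusted p = 0.00884) and with array quality weights. Tac1, the substance P precursor, measured 244, 251 and 243 FPKM and then 208, 167, 229 and 218 FPKM, with no overlap (adjusted p = 0.128).

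Ion channels of sensory neurons gave 5 calls among 73 genes, 4 higher (5.48%) and 1 lower (1.37%), which is near the 5.9% and 1.06% of all genes. They had a list median of -0.02 whose sign turned in 6 of 26 alternatives. Trpc6 (0.53), a calcium-permeable cation channel, Piezo1 (0.55), a mechanosensitive channel, Kcnt1 (0.26), a sodium-activated potassium channel, and Scn2a (0.26), a sodium channel, rose. Kcnj10, the 1 that fell, is the satellite glia channel already counted above, and no other channel of the list was called lower. Piezo1 measured 1.82, 1.67 and 1.66 FPKM and then 3.13, 3.86, 1.94 and 3.19 FPKM (log2 fold change 0.55, SE 0.14, adjusted p = 0.0367). Piezo2, the touch channel of sensory neurons, had 0.13 (adjusted p = 0.23). Channels known for nociceptors did not pass, with log2 fold changes of -0.05 for Trpv1, -0.51 for Trpa1, 0.03 for Scn9a, -0.06 for Scn10a, 0.08 for Scn11a and 0.24 for P2rx3. Among them Trpa1, the irritant receptor, was widest at 23.4, 23.1 and 19.6 FPKM and then 10.5, 17.1, 14.7 and 19.96 FPKM (adjusted p = 0.184). P2rx4, also of macrophages, had 0.5 (adjusted p = 0.096). None of the 5 calls held without day 1 sample 1, 3 or 4, and with any 1 sample left out 0 to 4 channels rose and 0 to 2 fell.

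Of 20 nerve injury and regeneration genes 1 fell and none rose, though 3 rose without day 14 sample 3. Atf3, the transcription factor that axotomy induces, measured 7.53, 15.1 and 6.62 FPKM and then 8.37, 13.6, 6.13 and 8.5 FPKM (log2 fold change -0.05, SE 0.33, adjusted p = 0.953), and Gap43, a growth cone protein, had a log2 fold change of 0.09 (adjusted p = 0.629). Bdnf, the neurotrophin, was the 1 that fell, from 7.71, 7.42 and 6.53 FPKM to 4.69, 4.42, 4.36 and 4.91 FPKM (log2 fold change -0.55, SE 0.10, adjusted p = 0.00919). Its day 14 samples were close to each other and below each day 1 sample, sample 2 included at 5.86 FPKM, and the call was lost without day 1 sample 1 (adjusted p = 0.053). Of 20 immediate early genes Arc fell (log2 fold change -0.38, SE 0.08, adjusted p = 0.0198), and of 24 cholesterol synthesis genes Cyp51 did (log2 fold change -0.39, SE 0.08, adjusted p = 0.0141), with a list median of -0.18. The calls of Arc and Cyp51 were lost without day 1 sample 1 or 3, and without day 14 sample 4, 9 of the cholesterol genes fell. Both Col4a1 (-0.44) and Col4a2 (-0.43), the basement membrane collagens, fell among 18 collagen chains, and neither did without day 1 sample 1, 3 or 4 or day 14 sample 2.

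Cytosolic ribosomal protein genes rose by small amounts. Of 78 tested, 49 were higher on day 14 and none lower, with a median of 0.28 against 0.03 over all genes. Rpl13a measured 528, 531 and 522 FPKM and then 594, 649.6, 703 and 625 FPKM (log2 fold change 0.28, SE 0.06, adjusted p = 0.0138), and Rplp0 388, 405 and 399 FPKM and then 462, 555, 484 and 461 FPKM (log2 fold change 0.3, SE 0.06, adjusted p = 0.0151). The count was 15, 14 or 22 without day 1 sample 1, 3 or 4, and 12 after centring each sample on its median. Genes taken by their symbols as nuclear-encoded subunits of the respiratory chain gave 1 call in 80, with a list median of -0.03. That call was Ndufa4l2, which entered the list by its symbol alone and fell (-0.46). Of 20 cell cycle genes tested, 8 of them only through day 7 and day 14, none passed the test, and 3 did without day 14 sample 3.

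**Figure D4:**
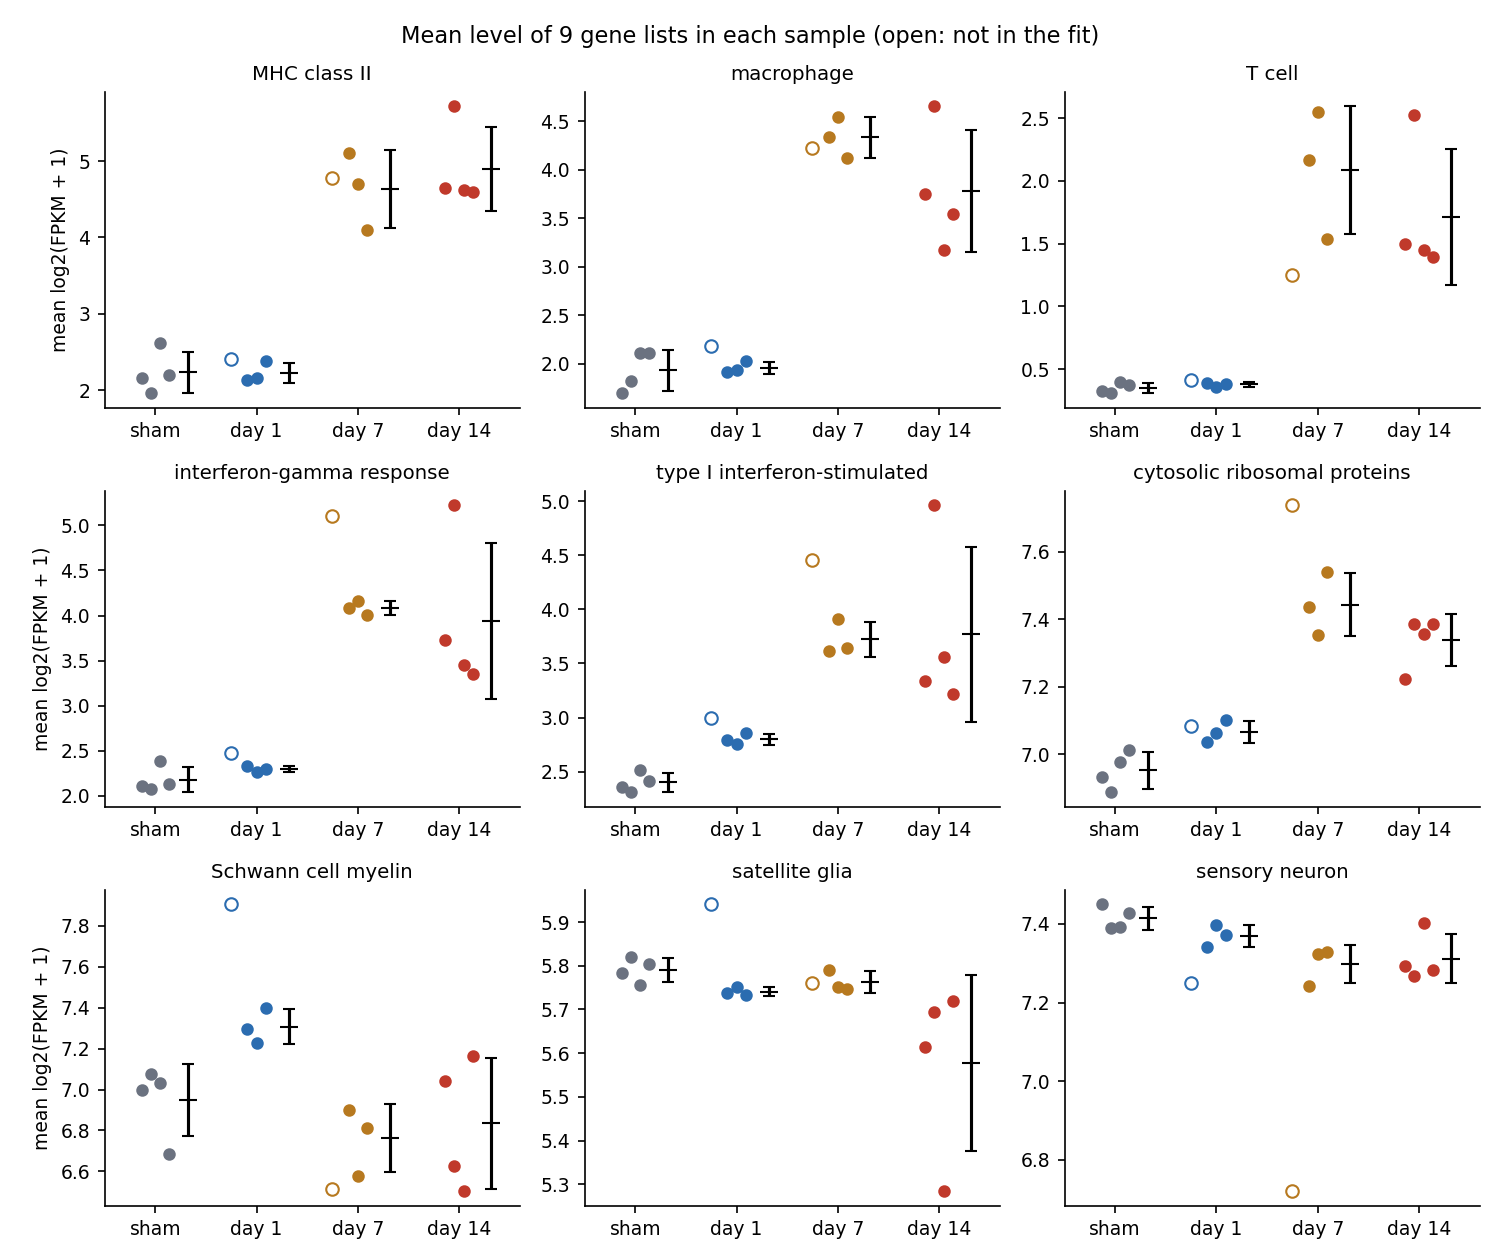
Mean log2(FPKM + 1) of the genes of 9 lists in each sample of sham and of days 1, 7 and 14 after TCI, each panel with its own axis, with bars for the mean ± SD of the samples in the fit and open circles for day 1 sample 2 and day 7 sample 3, which the study left out. Day 14 sample 2 is highest of its group for the 5 immune lists, and day 1 sample 2 is highest of all for myelin at 7.91.

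Markers of the other cell types gave few calls. Endothelial genes gave no call in 11, with a median of 0.03 whose sign turned in 10 of 26 alternatives, and fibroblast genes none in 10, with a median of 0.28 and summed levels of 675 to 876 FPKM on day 1 and 370.4 to 1074 FPKM on day 14. Day 14 sample 3 was the lowest of its group there, and without it 4 fibroblast genes rose. Its endothelial, satellite glia and myelin lists were lowest of the 4 too, and what part this has in the lower genes was not tested. Skeletal muscle markers, which can enter with the dissection, gave no call in 8, with summed levels of 248 to 317 FPKM and 250.5 to 287 FPKM. Most of each sum was 1 gene, Pvalb, at 233, 301 and 300 FPKM on day 1 and 228, 232, 268 and 261 FPKM on day 14. These sums are thus no measure of muscle content. Acta1 stayed between 4.95 and 7.78 FPKM in the 7 samples. Sham sample 4 had a summed level of 972 FPKM, against 303 to 317 FPKM in the other sham samples. That sample enters the spread used for these genes, with an SE of 0.89 for Acta1. Without it the limma adjusted p of Mylpf went from 0.763 to 0.0528, and no muscle marker passed in any of 26 alternatives. Hemoglobin and other red cell genes gave none in 4, with summed levels of 87.8 to 327 FPKM on day 1 and 106 to 194 FPKM on day 14. Epithelial markers that carcinoma cells could carry gave none in 4. Krt8 measured 3.63, 4.47 and 4.23 FPKM and then 4.3, 4.76, 6.69 and 3.45 FPKM, and Cdh1, which the ganglia also expressed on day 1, measured 81.03, 77.8 and 76.7 FPKM and then 66.1, 69.3, 50.1 and 68.2 FPKM (adjusted p = 0.0921). Of 7 adipocyte markers 2 were tested, and Cfd, complement factor D, rose (log2 fold change 1.27, SE 0.30, adjusted p = 0.0269), a call lost without day 1 sample 1 or 3 or day 14 sample 1 (adjusted p 0.0552 to 0.126).

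The last question was whether genes briefly moved on day 1 had returned by day 14. Against sham, limma called 0 genes on day 1 at an adjusted p of 0.05 (0%), with a smallest adjusted p of 0.736, and 734 genes at an unadjusted p of 0.05. Of the 42 genes that differed by 1 or more in log2 fold change, 10 had day 1 and sham samples that did not overlap, 6 higher and 4 lower on day 1. Over all genes the samples did not overlap at 865 genes higher (6.17%) and 803 lower (5.73%). Just under that size and without overlap lay Usp18 (0.97) and Irf7 (0.91), both induced by interferons, and Ciart (0.92), a repressor in the clock. Since day 1 chose these genes and enters the comparison with day 14, what follows is a description. The day 14 mean lay between day 1 and sham for 8 of the 10, and none passed the test between day 14 and day 1. Sample 2 of day 1, not used in the choice, lay in the range of the other day 1 samples for 3 of the 10 and in that of sham for 4.

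Dbp and Nr1d1, both output genes of the circadian clock, had day 1 samples close to each other. Dbp measured 34.1, 41.7 and 48.5 FPKM in day 1 samples 1, 3 and 4, 43.6 FPKM in sample 2, 14.1, 11.03 and 22.2 FPKM on day 7, 26.6, 22.4, 21.4 and 19.6 FPKM on day 14 and 26.1, 8.47, 12.9 and 6.89 FPKM in sham. So the 4 day 14 samples were below each day 1 sample and 3 of them in the range of sham. That range reached 26.1 FPKM through sham sample 1 alone, and all 4 day 14 samples lay above the other sham samples. The log2 fold change was 1.70 for day 1 against sham, -0.85 for day 14 against day 1 (limma adjusted p = 0.162) and 0.85 for day 14 against sham. Nr1d1 measured 27.2, 27.3 and 26.1 FPKM on day 1, 28.97 FPKM in day 1 sample 2, 11.9, 8.33 and 20.3 FPKM on day 7, 22.2, 30.6, 21.3 and 14.8 FPKM on day 14 and 19.1, 8.71, 8.96 and 5.89 FPKM in sham. Only 1 of its day 14 samples was in the range of sham, and sample 2 of day 14 was above all day 1 samples. Of 17 clock genes none passed between day 14 and day 1, with a median of 0.06 that turned sign in 3 of 26 alternatives. The hour at which ganglia were taken is not given, so its part in these genes was not tested.

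Ifit3 and Oas1g, both induced by interferons, were above every sham sample in each day 14 sample. Ifit3 measured 2.34, 1.84 and 3.35 FPKM on day 1, 2.02, 14.9, 2.19 and 1.45 FPKM on day 14 and 0.49, 0.48, 0.59 and 0.28 FPKM in sham, so that 3 of the day 14 samples were near or below day 1 and sample 2 far above. Oas1g measured 3.84, 2.59 and 3.93 FPKM on day 1, 6.43, 10.7, 6.54 and 5.23 FPKM on day 14 and 1.85, 1.09, 0 and 2 FPKM in sham, each day 14 sample lying above each day 1 sample. The whole list of type I interferon genes lay on log2(FPKM + 1) at 2.80 ± 0.05 (SD, n = 3) for day 1, between sham at 2.40 ± 0.09 (SD, n = 4) and day 14 at 3.77 ± 0.81 (SD, n = 4), with a list median of 0.38 for day 1 against sham.

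The other 6 genes rested on single samples or on values that jumped between near 0 and high within a group. Rpl30, a ribosomal protein, measured 94.95, 92.1 and 93.5 FPKM on day 1, 110.1, 1.78, 2.14 and 99.4 FPKM on day 14 and 1.5, 4.44, 77.5 and 89.8 FPKM in sham, and such jumps also divide samples of 1 group. Triap1 measured 0.44, 5.87 and 5.68 FPKM on day 1 and 0.22, 5.38, 0 and 3.15 FPKM on day 14 and was listed at 0 in all 4 sham samples. Serpinb1b measured 30.98, 3.66 and 55.7 FPKM on day 1, with sample 3 alone far below, and 28.3, 52.04, 29.3 and 56.2 FPKM on day 14. LOC102553010 was low in the same day 1 sample alone, at 4.67 FPKM against 155 FPKM or more in the other 3. Mylpf, a muscle myosin light chain, was low in the 3 day 1 samples, at 0.92, 0.98 and 0.99 FPKM, chiefly against sham sample 4 with 78.7 FPKM, and measured 3.18, 1.77, 1.93 and 1.72 FPKM on day 14. Rfxap, a subunit of the complex that binds the X box, was listed at 3.12, 3.97 and 0 FPKM on day 1, at 0, 3.31, 7.71 and 3.57 FPKM on day 14 and at 5.53, 4.58, 4.64 and 6.05 FPKM in sham.

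**Figure D5:**
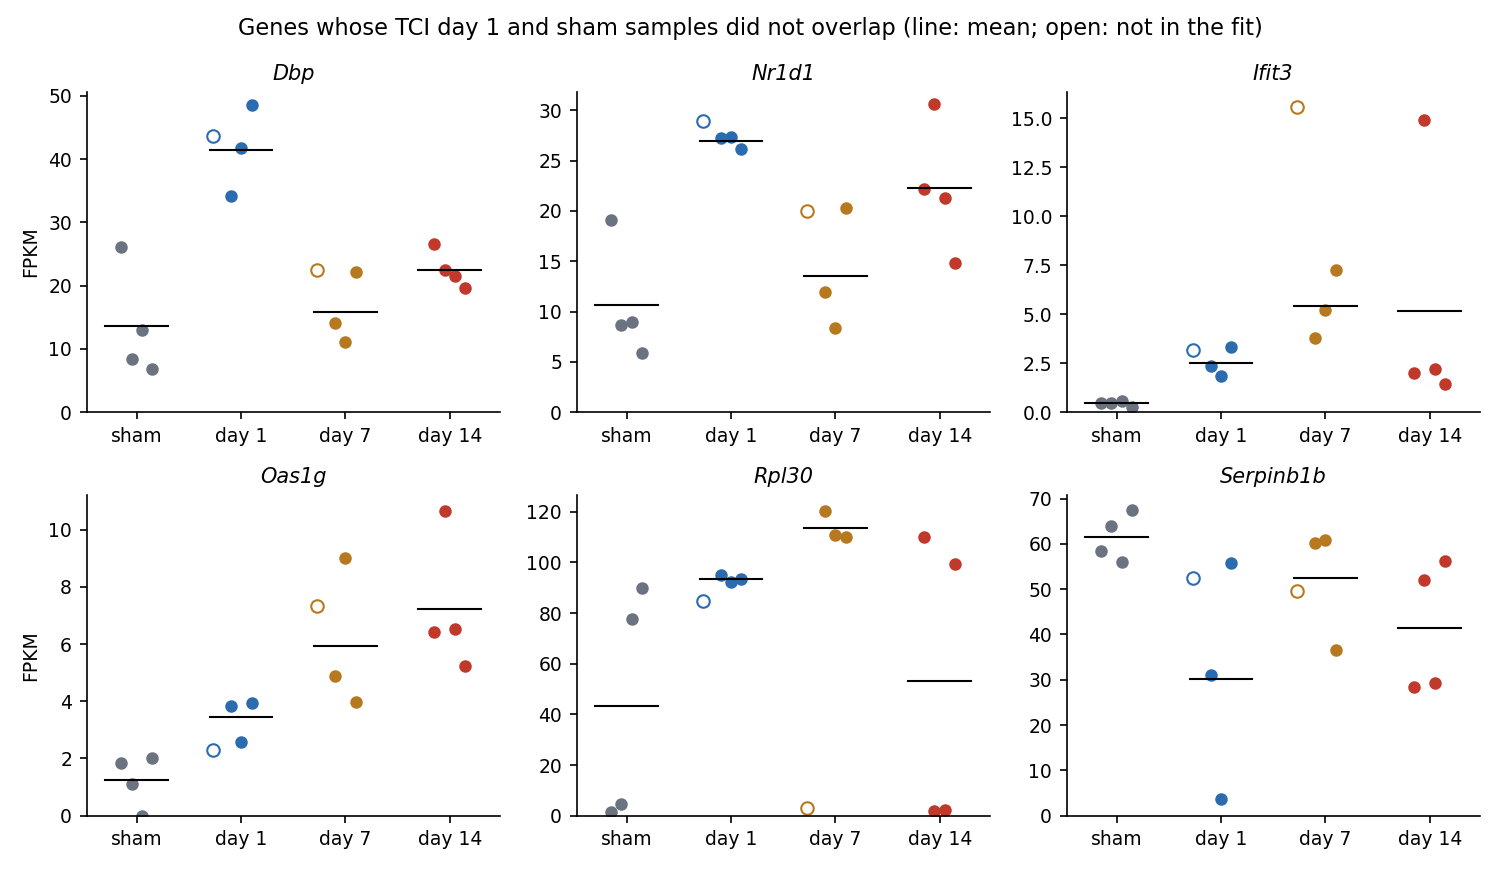
FPKM in each sample of sham and of days 1, 7 and 14 after TCI for 6 of the 10 genes whose TCI day 1 and sham samples did not overlap, with lines for the mean of the samples in the fit and open circles for the 2 samples that the study left out. The day 14 samples lie below those of day 1 for Dbp and above them for Oas1g, and neither gene passed the test between these days. Rpl30 splits the sham and day 14 samples into near 0 and high.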

How the data were processed

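RNA-seq of rat DRG was read as 16 deposited tables of FPKM per gene, 1 per sample and animal. The authors removed adaptor, N-rich and low-quality reads, aligned with HISAT and Bowtie2 and quantified with RSEM. The methods name a BGISEQ-500, the labels Bowtie2, CASAVA 1.4 and an Illumina protocol. Genome build and annotation are not given in the sources used here. FPKM hold no read totals, and the paper's text gives clean reads as a mean over samples, so the depth of each sample is unknown.

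Of 21021 genes, 377 were at 0 throughout. The values were FPKM rather than counts, so limma 3.58.1 (R 4.3.3) was run on log2(FPKM + 1) with an intensity trend, all 4 groups in 1 fit of 14 samples, on 14023 genes with at least 1 FPKM in 3 samples, and p-values were adjusted by Benjamini-Hochberg over all of them. In data simulated for this comparison with 13590 genes, 100 of 100 genes changed by 1.5 and 100 of 100 changed by 2 on the log2 scale were recovered at the cut-offs of the study, with 0 false calls there and 9 at an adjusted p of 0.05. The changed genes were drawn from those neither low on day 1 and in sham nor wide in spread. Each was shifted equally in every day 14 sample. So the recovery does not cover genes near 0 on day 1 or genes uneven between rats. Tables and figures were made with Python 3.11.15, pandas 2.3.3, numpy 2.4.6 and matplotlib 3.10.9.

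The rule for named genes took the 10 largest changes in each direction whose groups did not overlap (passing over symbols without a name), up to 3 members per list with the highest FPKM, passing members first, 5 genes per direction between day 1 and sham, and 10 landmarks, 123 genes in all. Other list members named, and Rpa2, were chosen after their values were seen. Samples, the 37 lists and the rules were chosen with earlier results of these data known, so counts over lists are descriptions. Alternatives varied the samples, filter, pseudocount, normalization, variance model, cut-off and block. Promoters are the 250 bases before the start from RefSeq, build GRCr8, matched by gene identifier for 10951 of the genes tested. A few genes of the lists are not reported here by name.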

Additional observations from a re-analysis of the deposited data

Results flagged for a closer look

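Of 314 groups of 4 samples examined, 29 had 1 sample farther from the other 3 than Dixon's 95% limit, which chance alone passes in about 1 group of 20. Sample 2 of day 14 was the high sample in most of them. Its mean log2(FPKM + 1) was 2.52 for T cell genes against 1.39 to 1.49 in the other 3 rats, 2.10 for cytotoxic lymphocyte genes against 1.02 to 1.07, 5.71 for MHC class II genes against 4.6 to 4.64, and 1.62 for checkpoint genes against 0.75 to 0.86. In single genes it held 115 FPKM of Ccl5 (others 32.04 to 34.9), 182 of RT1-Db1 (104 to 108), 15.9 of Nkg7 (3.03 to 3.95), 1.31 of Csf3r (0.71 to 0.80) and 201 of Gbp2 (30.3 to 34.5). It likewise held 196 FPKM of Bst2 (others 49.4 to 62.2), 160 of Cxcl13 (10.7 to 12.8), 27.9 of Csf2ra (11.7 to 12.9), 20.04 of Icam1 (5.8 to 6), 20.4 of Itgal (3.35 to 4.40) and 14.9 of Ifit3 (1.45 to 2.19).

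Sample 3 of day 14 was low in endothelial genes, at 2.59 against 2.87 to 2.92 on log2(FPKM + 1), in Cdh1, at 50.1 FPKM against 66.1 to 69.3, and in Ntrk2, at 30.5 FPKM against 39.9 to 40.8. Sample 1 of day 14 was high in skeletal muscle genes, at 1.75 against 1.31 to 1.37, and in glucocorticoid and stress response genes, at 4.20 against 3.57 to 3.66, and low in LOC108348326, at 3.33 FPKM against 3.71 to 3.77. Sample 4 of day 14 was low in sensory neuropeptides, at 3.46 against 3.55 to 3.56.

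Among the 4 day 1 samples, sample 2, which the study left out, was high in satellite glia genes, at 5.94 against 5.73 to 5.75 on log2(FPKM + 1), in Col4a1, at 94.8 FPKM against 67.4 to 68.5, and in Col4a2, at 62.3 FPKM against 45.1 to 46.7. Sample 1 was high in Ubd, at 1.36 FPKM against 0.84 to 0.92, and low in Jund, at 79.6 FPKM against 90.9 to 92.3. Sample 3 was high in Ifi27, at 296 FPKM against 223 to 230.3, and low in LOC102553010, at 4.67 FPKM against 155 to 269.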

How the results depend on the processing

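The number of genes called depended on the samples in the fit more than its direction did. At the cut-offs of the study 26 genes were higher, and the count was 76 with day 1 sample 2 added, 61 with all 16 samples, 0 with only the 2 groups compared, 141 with array quality weights, 16 with no filter, 74 with a pseudocount of 0.1 and 306 at an adjusted p of 0.05, and 0 to 115 with 1 sample left out. The 1 lower gene became 0 with all 16 samples, with only the 2 groups, with weights and with no filter, 2 at an adjusted p of 0.05, and 0 to 1 with 1 sample left out. At an adjusted p of 0.05 with no fold limit, 828 genes higher became 126 with only the 2 groups, 540 after quantile normalization and 404 at a mean of at least 5 FPKM, and ran from 258 to 1229 with 1 sample left out. The 148 lower became 296 with day 1 sample 2 added, 10 with only the 2 groups, 422 after quantile normalization and 424 after centring, and ran from 38 to 324 with 1 sample left out. After centring, 563 of the 828 and 148 of the 148 were still called. The cause was not tested. Day 1 against sham stayed at 0 genes in every alternative run. Of list medians, 877 of 959 moved by less than the spread between samples, and no named gene past the test reversed. Of 72 named genes past the test, 34 kept it with any 1 sample left out, and the other 38 lost it without at least 1 day 1 sample.

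Whether the same replicate numbers in both groups pair the samples cannot be settled from so few shared numbers. Deviations of same-numbered samples had r of 0.10, 0.20 and -0.01. Day 14 samples 1 and 3 correlated best with their own number, and sample 4 did not. With a replicate block, the counts were 6 higher and 0 lower at the cut-offs of the study, and 548 higher and 74 lower at an adjusted p of 0.05.

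Limits remain. Day 1 rests on 3 samples, and every estimate of spread is shared with day 7 and sham. The depth of each sample is unknown, so no upper limit is set here for a value listed at 0. No sham group was taken at day 1.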

Other observations

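Some genes outside the lists moved in every rat and were chosen here after their values were seen. Rbm3, an RNA-binding protein that cooling induces, measured 32.5, 26.98 and 26.9 FPKM in day 1 samples 1, 3 and 4 and 57.4, 87.3, 59.7 and 47.8 FPKM in day 14 samples 1 to 4 (log2 fold change 1.07, limma adjusted p = 0.00477). Its day 14 range lay wholly above that of day 1. Eef1a1, the elongation factor of translation, measured 1100.1, 1050.1 and 1129.6 FPKM and then 1399.6, 1458, 1232 and 1324 FPKM (0.31, limma adjusted p = 0.0124), moving by about as much as the ribosomal protein genes. Igfbp6, a binder of insulin-like growth factor 2, passed the cut-offs of the study with 91.6, 87.0 and 95.5 FPKM on day 1 and 198, 163, 216 and 169.9 FPKM on day 14. Unlike the immune genes, it was not highest in day 14 sample 2. Spint2, a serine protease inhibitor, also passed them, with 6.43, 7.75 and 6.71 FPKM and then 14.7, 16.4, 13.4 and 15.4 FPKM, and its 4 day 14 samples were close to each other.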
